A study of Mus musculus with 8 samples.

Results

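The comparison of RGFP966 + KLA with Veh asked where chromatin was more or less open in bone marrow-derived macrophages (BMDMs) after 6 h of a bacterial lipid signal in cells also exposed to an HDAC3 inhibitor. By the study's methods RGFP966 was added when the serum was lowered, before KLA, so the inhibitor acted for longer than the signal. It used 4 of the 8 ATAC-seq libraries of the series, 2 at Veh and 2 at RGFP966 + KLA, and every one of the 9698 peaks that were merged from the WT conditions. All 4 libraries came from wild type C57Bl6 mice with no transgene or deletion, and the Veh cells received the vehicle alone for the same time. A further pair of WT libraries had KLA alone, and the other pair of the series was Veh in BMDMs with floxed NCoR1 alleles.

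KLA (Kdo2 lipid A) is the part of lipopolysaccharide that TLR4 recognizes. TLR4 signals through adaptor proteins to NFκB, AP-1, and interferon regulatory factors, which bind enhancers and promoters together with macrophage lineage factors such as PU.1 and C/EBP. HDAC3 is a histone deacetylase that works within NCoR and SMRT complexes, and RGFP966 is a small molecule that inhibits it. ATAC-seq marks open chromatin by the transposase insertions that become sequenced tags. No library had RGFP966 alone, so the effects of KLA and of RGFP966 in this comparison cannot be told apart. The sample titles name RGFP966 for these 2 libraries while their treatment entry names only KLA. The labels give no mouse or culture for a library, so any spread between libraries may be technical. edgeR, used below, put that spread close to counting error alone, with a median trended dispersion of 9.77e-05. Its p-values can therefore miss the spread between mice or cultures.

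A gained peak is one with more tags at RGFP966 + KLA than at Veh, and a lost peak one with fewer, each at a fold change over 2 and an adjusted p-value under 0.05 in edgeR's quasi-likelihood test. There were 668 gained peaks, or 6.89% of those tested, and 290 lost peaks, or 2.99%. The gained peaks lay near 619 genes and the lost peaks near 285. Among the gained sites were an intron of Hhat, an intron of Nfkb1, the promoters of Il15, Ccrl2, Trex1, Camp, Socs3 and Mier1, and an element upstream of Cp. Among the lost sites were introns of Rapgef5, Dapk1, Cd83 and Hexa, and the promoters of Ccl2, Jun and Tlr4.

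The sequences of 9 of these peaks are shown because the results below turn on them: 6 gained peaks, among them those with the motif strings described below, and 3 lost peaks. Each is the plus strand of GRCm38 (mm10) at the center of a peak, without annotated untranslated bases, with capitals at each match to one of 9 short motif strings. The gained peaks come first. Nfkb1, Ccrl2 and Fpr1 hold an NFκB-p65 string, Fpr1 and Cp a C/EBP string, Bach1 an AP-1 string at 3 places, and Cp and Hhat a PU.1 string. In Cp the C/EBP and PU.1 strings touch, so their capitals run together.
Nfkb1, chr3:135640269-135640468: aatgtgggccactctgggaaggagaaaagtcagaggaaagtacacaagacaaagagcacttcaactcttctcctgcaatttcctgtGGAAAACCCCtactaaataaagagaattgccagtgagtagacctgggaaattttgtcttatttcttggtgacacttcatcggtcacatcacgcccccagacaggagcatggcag
Ccrl2, chr9:111057520-111057600: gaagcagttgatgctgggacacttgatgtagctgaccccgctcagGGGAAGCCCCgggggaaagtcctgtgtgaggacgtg
Fpr1, chr17:17884883-17885082: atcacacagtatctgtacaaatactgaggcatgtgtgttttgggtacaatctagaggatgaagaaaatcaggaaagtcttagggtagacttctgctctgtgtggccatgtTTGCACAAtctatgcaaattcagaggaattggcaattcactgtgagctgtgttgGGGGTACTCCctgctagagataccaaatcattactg
Bach1, chr16:87724885-87725084: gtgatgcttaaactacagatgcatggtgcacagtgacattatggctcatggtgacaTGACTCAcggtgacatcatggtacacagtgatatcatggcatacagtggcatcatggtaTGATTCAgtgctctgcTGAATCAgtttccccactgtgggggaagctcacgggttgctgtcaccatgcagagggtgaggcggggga
Cp, chr3:19954023-19954222: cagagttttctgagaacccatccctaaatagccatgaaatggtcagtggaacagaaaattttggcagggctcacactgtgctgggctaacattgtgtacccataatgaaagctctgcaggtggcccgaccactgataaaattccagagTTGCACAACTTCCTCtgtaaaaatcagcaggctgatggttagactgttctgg
Hhat, chr1:192699305-192699504: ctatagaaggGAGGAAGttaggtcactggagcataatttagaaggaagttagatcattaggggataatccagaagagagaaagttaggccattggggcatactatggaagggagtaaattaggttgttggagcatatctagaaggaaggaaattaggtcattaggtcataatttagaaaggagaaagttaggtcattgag

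The lost peaks follow. Rapgef5 and Klf4 hold a PU.1 string, and the window at Ccl2 holds none of the 9.
Rapgef5, chr12:117560580-117560779: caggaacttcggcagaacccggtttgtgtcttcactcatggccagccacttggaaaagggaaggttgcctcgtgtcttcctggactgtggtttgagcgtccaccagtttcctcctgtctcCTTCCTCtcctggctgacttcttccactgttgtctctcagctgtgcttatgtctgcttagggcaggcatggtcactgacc
Klf4, chr4:55741529-55741728: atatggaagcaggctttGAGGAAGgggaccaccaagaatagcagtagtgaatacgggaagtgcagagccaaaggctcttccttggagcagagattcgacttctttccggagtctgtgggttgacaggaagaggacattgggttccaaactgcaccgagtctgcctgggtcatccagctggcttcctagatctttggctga
Ccl2, chr11:82035392-82035570: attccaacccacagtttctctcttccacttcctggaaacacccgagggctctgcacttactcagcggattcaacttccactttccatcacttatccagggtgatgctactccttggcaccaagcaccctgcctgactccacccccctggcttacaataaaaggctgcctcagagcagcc

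Tags in peaks numbered 128949 and 121106 at Veh and 202523 and 194208 at RGFP966 + KLA, which is 1.59 times as many in sum. Equal raw tags at a peak therefore stand for a lower level at RGFP966 + KLA, and fold changes are given after division by the total tags in peaks. A median of 11 tags in Veh replicate 1 and 17 in each RGFP966 + KLA library shows that most peaks rest on few tags. Fewer cells with an open site and a less open site in every cell cannot be told apart in such bulk libraries. Of 10 macrophage markers, 5 had an assigned peak. Their 7 peaks were neither gained nor lost, and their summed level was 66.1 to 66.7 tags per 100000 tags in peaks at Veh and 53.0 to 62.2 at RGFP966 + KLA. No peak was assigned to Adgre1, Cd14, Lyz2, Mertk or Spi1. Of 5 markers each, none of the B cell or neutrophil lists, 1 of the T cell, fibroblast and erythroid lists, and 3 of the dendritic cell list had a peak. The promoter of the dendritic cell marker Zbtb46 was among the lost peaks, and the summed dendritic level was 21.5 to 26.4 at Veh and 14.8 to 14.9 at RGFP966 + KLA. Its part in the other results was not tested.

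All 668 gained peaks had both RGFP966 + KLA libraries above both Veh libraries in tags per total tags in peaks, and all 290 lost peaks had both below. The same held without any call in much of the table, since 30.0% of all peaks lay wholly above and 24.7% wholly below. The median log2 fold change was 2.04 over gained peaks, -1.47 over lost peaks and 0.04 over all peaks. The fit put 357 gained peaks over 4-fold and 102 over 8-fold, against 46 and 4 of the lost. The smallest called changes were at the promoters of Tecr, a fatty acid elongation enzyme, at 1.02, and Stk11, the kinase LKB1, at -1.0. Of the gained peaks, 16 had no tag in either Veh library, and 203 had 3 or fewer in all.

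The number of calls depended on the tool, the scaling and each library. DESeq2 called 0 peaks with its own size factors, with 742 peaks at an unadjusted p under 0.05, and with total tags as size factors it called 1, the Hhat intron, at an adjusted p of 0.0447. Gained peaks made up 69.7% of the edgeR calls, 82.8% with all tags of a library as its size (589 gained and 122 lost), and 50.2% with loess offsets (394 and 391). Without Veh replicate 1 there were 229 gained and 90 lost peaks, without Veh replicate 2 there were 299 and 135, without RGFP966 + KLA replicate 1 there were 298 and 110, and without replicate 2 there were 290 and 95. With each of the 4 libraries left out in turn, 87 gained and 20 lost peaks were called every time. The word "steady" is used below for these 107 peaks.

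**Figure D1:**
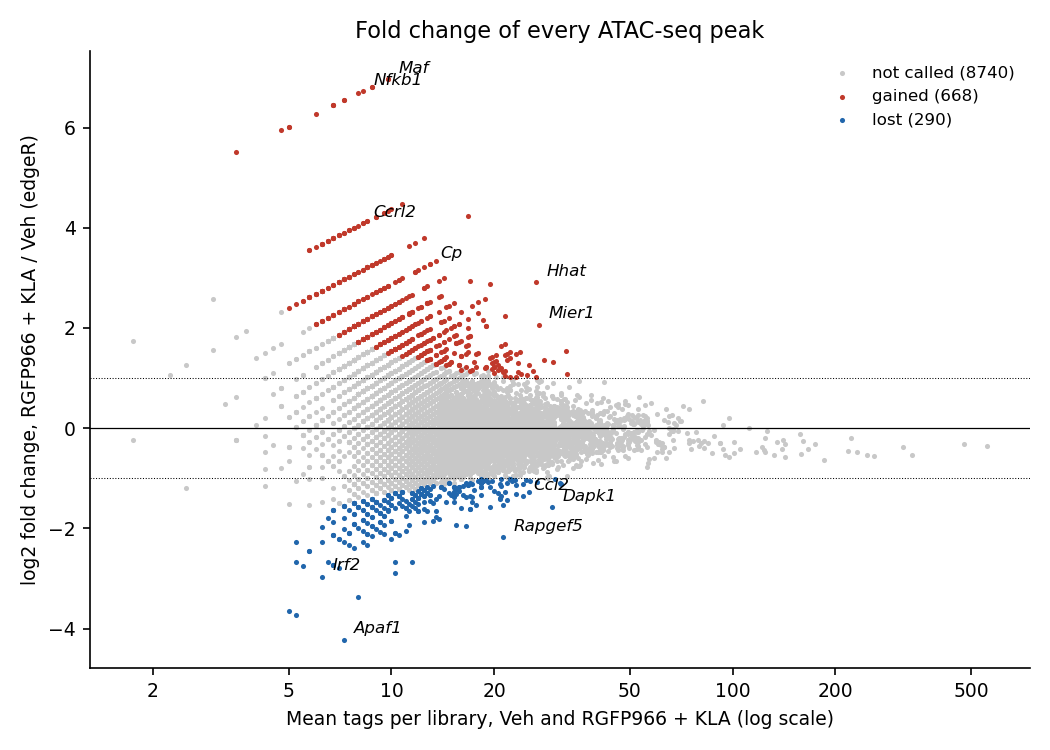
Each point is 1 of 9698 peaks, with mean tags per library over the 4 libraries on a log axis and edgeR's log2 fold change of RGFP966 + KLA over Veh on the other. Gained peaks (668) are red and lost peaks (290) blue, dotted lines mark a 2-fold change, and the points above 5, such as Nfkb1 and Maf, are peaks with no tag at Veh, whose fitted value depends on the prior count.

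The gained peak with the smallest adjusted p-value, and with the largest fold change among gained peaks with a mean of at least 20 tags, was in Hhat. Hhat encodes the acyltransferase that attaches palmitate to hedgehog proteins. The peak (chr1:192699222-192699586) lies in intron 7 of 11, 71815 bp from the TSS. It had 4 tags in each Veh library and 48 and 50 at RGFP966 + KLA, a log2 fold change of 2.92 ± 0.40 (SE, n = 2 libraries per condition, edgeR adjusted p = 1.26e-05). The KLA libraries had 40 and 29 tags there. A second gained peak, 10191 bp upstream of the Hhat TSS, had 2 and 0 tags at Veh and 19 and 18 at RGFP966 + KLA. Its KLA libraries had 3 and 2 tags, and its ratio of RGFP966 + KLA to Veh was 11.7 (95% counting interval 3.01 to 99.9). Both Hhat peaks were steady, and the upstream one is named here after its values were seen.

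The other 11 gained peaks with the largest fold changes were 3 promoters and 8 sites in introns or between genes. The promoter peak of Mier1, a gene for a chromatin corepressor protein that recruits histone deacetylases, had 9 and 5 tags at Veh and 44 and 50 at RGFP966 + KLA (log2 fold change 2.07 ± 0.35, SE, edgeR adjusted p = 0.00019). The KLA libraries had 17 and 11 tags, and RGFP966 + KLA against KLA gave 1.35 ± 0.30 with an adjusted p of 0.0191 in the same edgeR fit, a comparison in which 0.340% of all peaks were called. An intron of Tmem243, a membrane protein gene, went from 5 and 5 tags to 41 and 35 (log2 fold change 2.24). Both were steady. The remaining sites had log2 fold changes from 1.45 to 1.68. They lay at Ptpre, a receptor-type tyrosine phosphatase, Col6a6, a collagen chain, Mettl2, an RNA methyltransferase, Atg10, an autophagy conjugating enzyme, Ndst3, a heparan sulfate sulfotransferase, Rev1, a translesion DNA polymerase, Marcks, an actin-binding kinase substrate, the uncharacterized 4933413L06Rik, and Foxo6, a forkhead factor. In Col6a6 the Veh libraries had 13 and 1 tags, the widest spread of these, against 34 and 36. The promoter of E2f3, a cell cycle transcription factor, completed the 4 promoters with the largest gains at 1.37.

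Peaks without a Veh tag can be given a lower bound only, computed against 3 tags over both Veh libraries. The steady peak in intron 6 of 24 of Nfkb1, which encodes the NFκB subunit p105/p50, had 0 and 0 tags at Veh, 16 and 17 at RGFP966 + KLA, and 18 and 13 at KLA, and was at least 6.93-fold higher than Veh. A site 308712 bp downstream of the start of Maf, a macrophage lineage factor, had 0 and 0 tags against 18 and 21, at least 8.19-fold higher. The Atg10 promoter had 0 and 0 tags against 21 and 14, with 9 and 7 at KLA, and was at least 7.35-fold higher. All 3 were empty at Veh and held tags in both libraries of each stimulated condition.

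The inflammatory cytokine genes had 15 peaks, of which 6 were gained and none lost, where 6.89% of all peaks were gained. The median log2 fold change of the 15 was 0.83, beside 0.04 over all. The promoter of Il15, a cytokine for lymphocyte survival, had 2 and 3 tags at Veh, 29 and 16 at KLA, and 25 and 38 at RGFP966 + KLA (log2 fold change 2.94 ± 0.50, SE, edgeR adjusted p = 0.00019). It was the steady peak of this list. Both libraries of each stimulated condition stood above both Veh libraries there.

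Il12a and Il12b encode the subunits of interleukin 12, which drives T cells toward interferon production. A peak in intron 2 of 6 of Il12a had 0 and 1 tags at Veh and 10 and 12 at RGFP966 + KLA, a ratio of 13.9 (95% counting interval 2.24 to 572). A peak 57874 bp upstream had 3 and 2 tags against 14 and 22, with 39 and 13 at KLA. At Il12b, 9902 bp upstream, there were 2 and 1 tags at Veh, 30 and 12 at KLA, and 11 and 14 at RGFP966 + KLA. The ratio of RGFP966 + KLA to Veh was 5.25 (95% counting interval 1.60 to 27.2), and the central window holds an NFκB-p65 and a C/EBP string. None of these 3 was steady, and the Il12b call was lost with any of the 4 libraries left out. A peak upstream of Il1a, a gene for interleukin 1 alpha, had 1 and 3 tags against 14 and 17 (log2 fold change 2.23), and one assigned to Csf3, the granulocyte growth factor, had 3 and 0 against 16 and 9. The count of 6 was 3 with loess offsets, 5 with GC offsets, 2 without Veh replicate 1 and 3 without Veh replicate 2.

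Chemokine genes had 2 gained and 1 lost of 18 peaks, or 11.1% and 5.56% beside 6.89% and 2.99% of all peaks. The median log2 fold change of the 18 was -0.35, beside 0.04 over all, and 5 of the 18 were above 0. The Ccrl2 promoter, which serves an atypical receptor that binds chemerin, had 0 and 1 tags at Veh and 14 and 18 at RGFP966 + KLA, a ratio of 20.2 (95% counting interval 3.37 to 821), and was steady. The promoter of Cxcl2, a neutrophil attractant, had 5 and 4 tags against 17 and 25 (log2 fold change 1.54, edgeR adjusted p = 0.0334). Unlike these 2 promoters, that of Ccl2 was lower at RGFP966 + KLA. Ccl2, the monocyte attractant MCP-1, had 31 and 29 tags at Veh, 20 and 7 at KLA, and 16 and 21 at RGFP966 + KLA (log2 fold change -1.36 ± 0.30, SE, edgeR adjusted p = 0.0023). The Ccl2 call was lost without RGFP966 + KLA replicate 1, at a log2 fold change of -1.14.

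Among the 25 peaks of NFκB subunits and inhibitors, the Nfkb1 intron was the 1 gained peak, or 4.0% beside 6.89%, and the list median was 0.39. The promoters of Nfkbiz and Tnip3, both NFκB regulators, had log2 fold changes of 1.55 and 1.31 and did not pass the test. AP-1 and related bZIP genes had 1 gained and 3 lost of 28 peaks, or 3.57% and 10.7% beside 6.89% and 2.99%, with a median of -0.02. The gained one was intron 4 of 4 of Bach1, a repressor of antioxidant genes, with 2 and 1 tags at Veh and 17 and 18 at RGFP966 + KLA, a ratio of 7.35 (95% counting interval 2.32 to 37.4), and it was steady. The lost ones were at the Jun promoter, a site 53918 bp upstream of Jun, and the promoter of Mafk, a small Maf protein. The Jun promoter had 47 and 26 tags at Veh, 12 and 11 at KLA, and 31 and 22 at RGFP966 + KLA (log2 fold change -1.12 ± 0.28, SE, edgeR adjusted p = 0.00582). All 3 lost calls ended with all tags as the library size.

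Calls at TLR4 and its kinase TBK1 were among the least secure. The Tlr4 promoter had 29 and 27 tags at Veh, 23 and 11 at KLA, and 24 and 19 at RGFP966 + KLA (log2 fold change -1.04 ± 0.29, SE, edgeR adjusted p = 0.0156). A gained peak was at Tbk1, the kinase that phosphorylates IRF3, with 1 and 1 tags against 10 and 11. Both calls were lost with any of the 4 libraries left out.

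Feedback inhibitors of inflammatory signaling had 4 gained and 4 lost of 46 peaks, each 8.7% beside 6.89% and 2.99% of all peaks, and 2 of each with all tags as the library size. The gained ones serve inhibitors of cytokine receptors, an RNA-degrading enzyme and a ubiquitin editor. The Socs3 promoter had 3 and 2 tags at Veh, 15 and 22 at KLA, and 23 and 20 at RGFP966 + KLA (log2 fold change 2.39 ± 0.56, SE, edgeR adjusted p = 0.0034), and was steady. A site upstream of Zc3h12a, the RNase Regnase-1, had 1 and 0 tags against 12 and 13, a ratio of 15.8 (95% counting interval 2.58 to 647). The others were an intron near the Socs1 start, with 7 and 7 tags against 28 and 28, and a site 46905 bp from the TSS of Tnfaip3, which encodes A20, with 4 and 7 against 22 and 24. The lost peaks were 3 promoters and a site at Dusp6. The promoter of Zfp36l2, an mRNA decay factor, had 15 and 11 tags at Veh, 5 and 0 at KLA, and 2 and 6 at RGFP966 + KLA (log2 fold change -2.32 ± 0.50, SE, edgeR adjusted p = 0.00178). The promoters of Dusp4, a MAP kinase phosphatase, and Spry2, a receptor kinase inhibitor, had log2 fold changes of -1.76 and -1.42, as Dusp6, a further phosphatase, had -1.42.

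Macrophage lineage factors had 1 gained and 4 lost of 51 peaks, or 1.96% and 7.84% beside 6.89% and 2.99% of all peaks, with 2 lost when all tags were the library size. The gained one was the Maf site above. The steady lost peak was 209153 bp upstream of Klf4, a monocyte differentiation factor, with 11 and 11 tags at Veh, 10 and 6 at KLA, and 2 and 3 at RGFP966 + KLA (log2 fold change -2.73 ± 0.55, SE, edgeR adjusted p = 0.000889). Introns of Mitf, a regulator of lysosomal genes, and Fli1, an ETS factor, and a site upstream of Egr1, an immediate early factor, fell by 1.64, 1.48 and 1.42 on the log2 scale. The lost peak of the IRF and STAT list was in an intron of Irf2, a factor that antagonizes IRF1, with 11 and 10 tags at Veh, 5 and 8 at KLA, and 1 and 3 at RGFP966 + KLA (log2 fold change -2.96). Of the 14 peaks of that list, none was gained and 1 was lost, or 0.0% and 7.14% beside 6.89% and 2.99% of all peaks.

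A list of prostaglandin, nitric oxide and amino acid enzymes also held Cp and the receptor gene Ptger2. It had 4 gained and no lost of 24 peaks, or 16.7% beside 6.89%. With loess offsets 1 of the 24 was gained, where 394 of all 9698 peaks were. The steady one was at Cp, which encodes the copper oxidase ceruloplasmin, 2932 bp upstream of the TSS (chr3:19953962-19954282). It had 1 and 2 tags at Veh, 33 and 23 at KLA, and 21 and 28 at RGFP966 + KLA, a ratio of 10.3 (95% counting interval 3.32 to 51.6). KLA against Veh was also called there (adjusted p = 2.95e-05 in edgeR, a comparison with 5.03% of peaks called), and RGFP966 + KLA against KLA gave -0.58 ± 0.28 (SE, adjusted p = 0.351). An intron of Arg2, a mitochondrial arginase, had 2 and 2 tags against 17 and 16. Sites at Ptges, the prostaglandin E synthase, and Ptger2, a prostaglandin E receptor, had 0 and 2 against 11 and 11 and 2 and 4 against 20 and 14. The promoter of Ptgs2, the inducible cyclooxygenase, did not pass, with 2 and 8 tags at Veh, 6 and 4 at KLA, and 13 and 14 at RGFP966 + KLA (log2 fold change 0.76 ± 0.49, SE, edgeR adjusted p = 0.354).

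**Figure D2:**
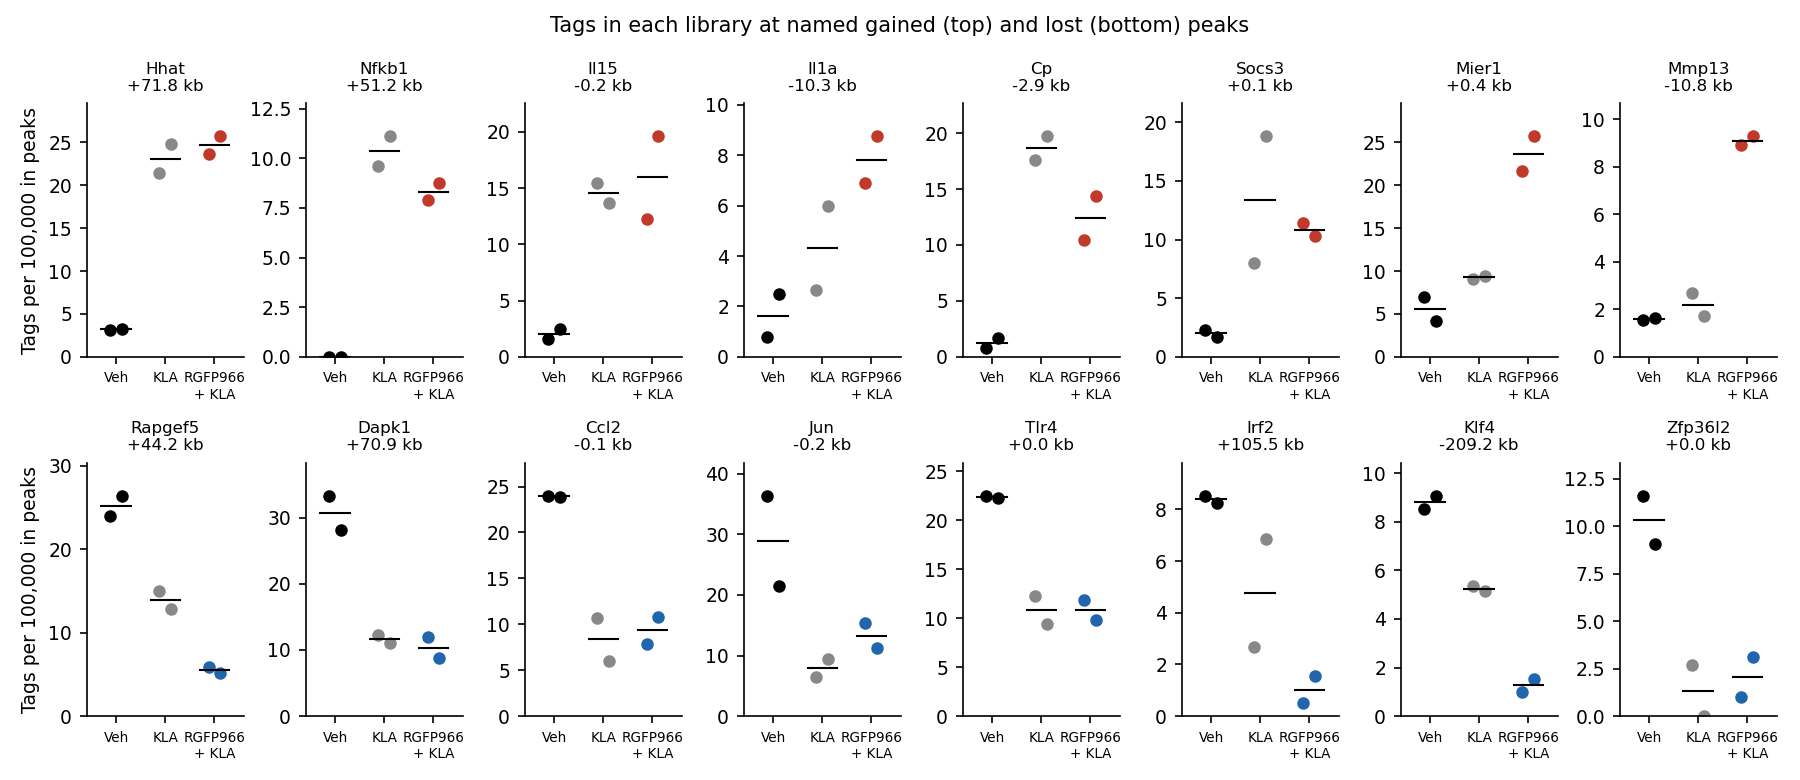
Tags per 100000 tags in peaks in each of the 2 libraries (points) and their mean (line) at Veh, KLA and RGFP966 + KLA, with the distance from the TSS above each panel and each axis starting at 0. At the 8 gained peaks (top) both RGFP966 + KLA libraries lie above both Veh libraries, and at the 8 lost peaks (bottom) both lie below. The same holds at every gained and every lost peak.

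Genes for cell adhesion and migration had 6 gained and no lost of 31 peaks, or 19.4% beside 6.89%. A peak in intron 1 of 13 of Cd44, the hyaluronan receptor, had 0 and 2 tags at Veh and 22 and 14 at RGFP966 + KLA, a ratio of 11.3 (95% counting interval 2.92 to 97.3), and holds an NFκB-p65 string. A peak upstream of Mmp13, a collagenase, had 2 and 2 tags at Veh, 5 and 2 at KLA, and 18 and 18 at RGFP966 + KLA (log2 fold change 2.45 ± 0.56, SE, edgeR adjusted p = 0.00267). RGFP966 + KLA against KLA gave 1.94 there with an adjusted p of 0.0465 in the same fit. The other 4 were at Marcks, Vcan, a matrix proteoglycan, Sdc4, a heparan sulfate proteoglycan, and Mmp14, a membrane metalloproteinase. None of the 6 was steady. The list had 1 gained and 1 lost peak without Veh replicate 1, and 3 gained without Veh replicate 2 or without RGFP966 + KLA replicate 1.

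The remaining lists had few calls. Lysosome and phagocytosis genes had 2 lost of 29 peaks, in introns of Hexa, a hexosaminidase subunit, with 25 and 20 tags against 12 and 11, and Axl, a receptor for dying cells, with 17 and 14 against 3 and 13. LXR and SREBP lipid genes had 2 lost of 23 peaks, at the promoter of Mylip, which degrades the LDL receptor, and upstream of Insig1, which restrains SREBP. Of the 4 peaks of Abca1, a cholesterol exporter, none was called, and the one nearest the TSS had 1 and 3 tags at Veh and 13 and 10 at RGFP966 + KLA (edgeR adjusted p = 0.0576). The peak of Scd2, a fatty acid desaturase, gave 0.63 ± 0.39 (SE, edgeR adjusted p = 0.317). Interferon-stimulated genes had 1 gained of 10 peaks, or 10.0% beside 6.89% of all peaks, at Rsad2, which encodes the antiviral enzyme viperin. The median log2 fold change of the 10 was 0.78, beside 0.04 over all, and 8 of them were above 0. Glycolysis and hypoxia genes had 2 gained of 25, at Hk1 and Pfkp, a hexokinase and a phosphofructokinase. Cell cycle genes had 1 gained of 20, assigned to Mki67. None of the 18 peaks of NCoR, HDAC and corepressor genes and none of the 5 peaks of osteoclast genes was called by edgeR, while loess offsets called 2 lost peaks in the former. No peak was assigned to Acp5 or Ocstamp.

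**Figure D3:**
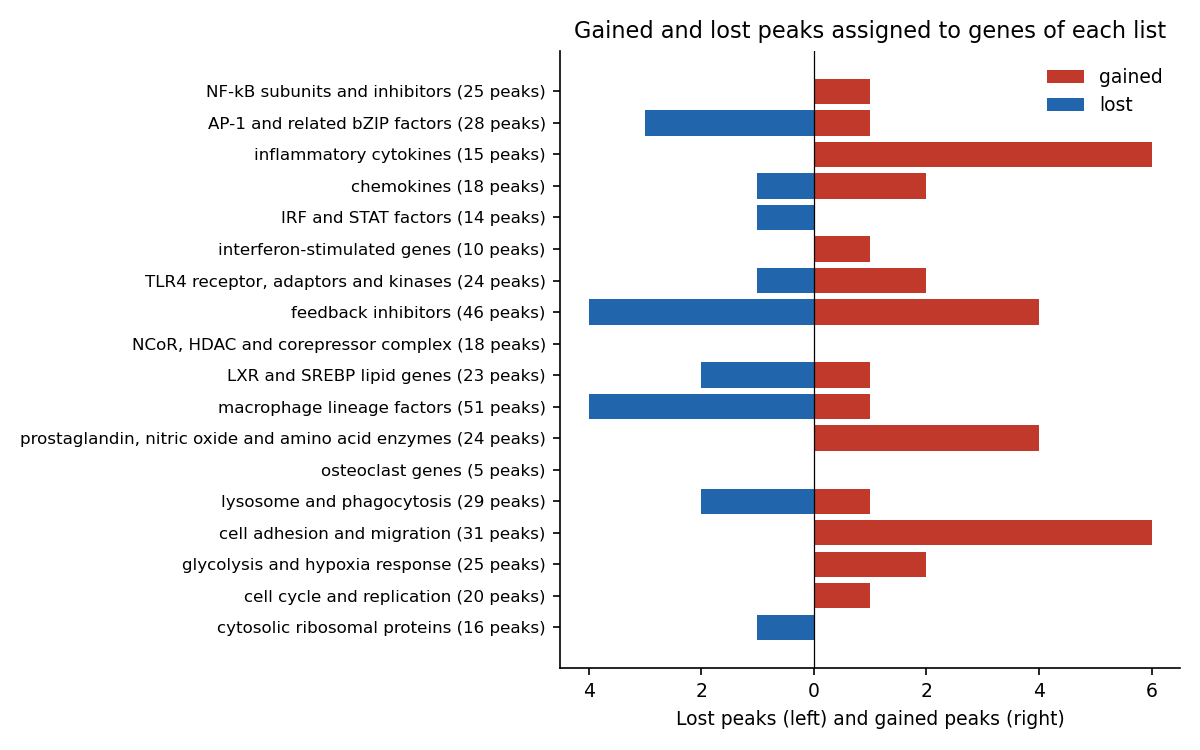
Number of lost peaks (blue, to the left) and gained peaks (red, to the right) assigned to the genes of each of 18 lists, with the number of peaks of the list in brackets. Inflammatory cytokines and cell adhesion genes have 6 gained and no lost peaks each, and feedback inhibitors have 4 of each.

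Some immune genes outside these rules were chosen after their values were seen. Steady gained promoters served Trex1, a DNA exonuclease that limits interferon responses, with 5 and 2 tags at Veh and 30 and 35 at RGFP966 + KLA, and Camp, the antimicrobial peptide cathelicidin, with 4 and 5 against 32 and 33. A steady peak 1043 bp upstream of Fpr1, the formyl peptide receptor, had 1 and 1 tags against 20 and 13, a ratio of 10.4 (95% counting interval 2.66 to 89.5). A steady site upstream of Edn1, a gene for the vasoconstrictor endothelin 1, had 1 and 3 tags against 23 and 23. Il1rap, an interleukin 1 receptor subunit, had a steady intronic peak with 1 and 1 tags against 14 and 17. Tnfrsf1b, a TNF receptor gene, had a gained promoter and a gained site 7683 bp upstream. A pair of neighbouring sites 113318 and 112836 bp upstream of Azi2, an adaptor of TBK1, was gained too.

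By the rule on genes with several peaks, 5 genes had 3 or more gained peaks and no gene had as many lost ones. There were 668 gained and 290 lost peaks in all, so more of the former could share a gene. Fut8, which adds core fucose to glycoproteins, had gained peaks in an intron, upstream, and in a downstream intergenic site, of which the intronic one had 0 and 1 tags at Veh and 22 and 15 at RGFP966 + KLA and was steady. Nrp2, a semaphorin receptor, had 3 gained peaks between 220063 bp upstream and 11892 bp downstream of its TSS. Sh3glb1, which shapes membranes in autophagy, had 3 within 50758 bp downstream of its start. Rgs9, a regulator of G protein signaling, had one at its start with 1 and 0 tags against 14 and 12 and further ones in introns. The noncoding gene Sox5os3 had the other 3. These assignments are to the nearest TSS and do not show which gene a distal site acts on.

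The lost peak with the largest fold change among those with a mean of at least 20 tags was in intron 3 of 27 of Rapgef5, an activator of Rap GTPases (chr12:117560514-117560844). It had 31 and 32 tags at Veh, 28 and 15 at KLA, and 12 and 10 at RGFP966 + KLA (log2 fold change -2.17 ± 0.33, SE, edgeR adjusted p = 4e-05). An intron of Dapk1, a death-associated kinase, had 43 and 34 tags at Veh, 23 and 13 at KLA, and 24 and 17 at RGFP966 + KLA, and fell by 1.57 on the log2 scale. Both were steady, as was an intron of Ssfa2, an actin-associated protein gene, which fell by 1.44. The groups did not overlap at any of the 3 after division by depth, as was required for naming them. The same held at all 290 lost peaks, and 24.7% of all peaks lay wholly below Veh.

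The other lost peaks with the largest fold changes had log2 values from -1.53 to -1.27. They lay at Eif4ebp1, a translation repressor, Mir148a, a microRNA gene, Usp20, a deubiquitinase, the uncharacterized 1700056E22Rik, Ccl2, Birc6, an inhibitor of apoptosis, Ctns, the lysosomal cystine transporter, Cpeb2, an RNA-binding protein, and Pcx, pyruvate carboxylase. A promoter peak here lies within 2 kb of a TSS, and the promoters with the largest losses were those of Eif4ebp1, Usp20, Ccl2 and Birc6. The smallest adjusted p-value of a lost peak was at an intergenic site assigned to Apaf1, the apoptosome scaffold, with 15 and 12 tags at Veh, 1 and 4 at KLA, and 1 and 1 at RGFP966 + KLA (log2 fold change -4.22 ± 0.62, SE, edgeR adjusted p = 2.36e-05). It was 1 of the 4 lost peaks over 8-fold. Apaf1, Rapgef5 and Cpeb2 each had a gained peak at another place. The others were at Ccdc90b, Adcy9, an adenylyl cyclase, and Cd83, an activation marker of antigen-presenting cells. The Cd83 intron had 12 and 16 tags at Veh, 19 and 5 at KLA, and 2 and 2 at RGFP966 + KLA (log2 fold change -3.37 ± 0.59, SE, edgeR adjusted p = 0.00019). RGFP966 + KLA against KLA gave -2.88 there with an adjusted p of 0.0191.

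Promoters of several myeloid surface and signaling genes, chosen after their values were seen, were lost with few tags. C5ar1, the complement C5a receptor, had 15 and 14 tags at Veh and 11 and 6 at RGFP966 + KLA. Ptafr, the platelet-activating factor receptor, had 14 and 9 against 7 and 5. Cd53, a tetraspanin, had 12 and 12 against 6 and 5. No RGFP966 + KLA library had more than 11 tags at any of the 3, and none was steady. Further lost promoters of this kind were those of Clec4a2, a lectin receptor, Traf2, a TNF receptor adaptor, and Ptpn22, a phosphatase that restrains receptor signaling. Ncf1, a subunit of the phagocyte NADPH oxidase, had 2 lost peaks, with 11 and 9 against 6 and 5 tags and 10 and 9 against 3 and 7.

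Gained and lost peaks differed in their place in the genome. Within 2 kb of a TSS lay 15.4% of gained peaks (103 of 668, 95% Wilson interval 12.9 to 18.4%), 44.3% of lost peaks (128 of 289, 38.7 to 50.1%) and 51.0% of all peaks (4913 of 9629). The median distance to the TSS was 26102 bp for gained, 4800 bp for lost and 1550 bp for all peaks. Over 50 kb away lay 33.5% of gained, 17.3% of lost and 14.5% of all peaks. By annotation, 320 gained peaks were in introns, 266 between genes and 67 at promoters, against 103, 66 and 111 lost peaks. Promoter peaks as a whole had a median log2 fold change of -0.06 and distal ones of 0.24. With all tags as the library size, 33.9% of lost peaks were within 2 kb. The median GC content was 47.9% for gained, 54.7% for lost and 56.5% for all peaks. With GC offsets there were 539 gained and 299 lost peaks, of which 509 and 236 were those called without them.

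**Figure D4:**
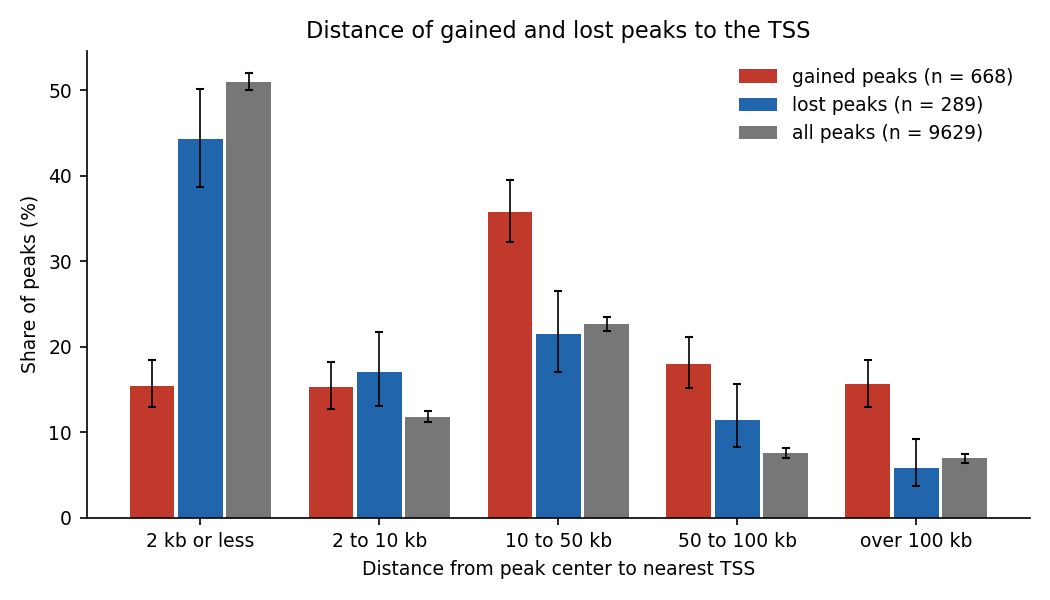
Share of gained (red, 668), lost (blue, 289) and all (gray, 9629) peaks in 5 classes of distance from the peak center to the nearest TSS, with 95% Wilson intervals as bars. Gained peaks are 15.4% within 2 kb and 35.8% at 10 to 50 kb, where all peaks are 51.0% and 22.7%.

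How a peak came into the table was not neutral for this comparison. The table merges the reproducible peaks of each condition. Of the 668 gained peaks, 654 were in the RGFP966 + KLA set and 4 in the Veh set. Of the 290 lost peaks, 281 were in the Veh set and 44 in the RGFP966 + KLA set. The KLA set had been chosen without any of the 4 libraries compared, but it was not neutral either. KLA was part of the RGFP966 + KLA treatment, so that set can favour sites open with KLA over sites open only at Veh. Among its 5092 peaks, with p-values adjusted within it, 178 were gained and 49 lost. The Veh set alone gave 3 gained and 195 lost of 4743 peaks.

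The Veh libraries from NCoR f/f BMDMs were counted on another set of peaks, merged over more conditions than Veh, so that table was compared by position alone. Some peak of that table overlapped 78.4% of gained peaks by at least 1 bp (524 of 668, 95% Wilson interval 75.2 to 81.4%), 94.8% of lost and 95.1% of all peaks. A peak in the reproducible Veh set of these libraries overlapped 23.1% of gained peaks (154 of 668, 20.0 to 26.4%). For lost peaks this was 82.4% (239 of 290, 77.6 to 86.4%) and for all peaks 78.3%. The interval of the gained peaks lay below the share of all peaks, and that of the lost peaks included it. In the WT Veh set, however, were only 4 of the 668 gained peaks, beside 48.9% of all and 96.9% of lost peaks. A low overlap of gained peaks with another Veh set was thus largely set by how peaks entered the table. It is no separate evidence for the gains. Gained promoter peaks overlapped this set in 41.7% and gained distal peaks in 19.6% of cases.

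Motif strings were counted in 200 bp at the center of 9527 peaks with sequence on the main chromosomes, on both strands. The AP-1 string (TGANTCA) occurred in 39.5% of gained peaks (95% Wilson interval 35.9 to 43.3%), 12.5% of lost peaks (9.14 to 16.8%) and 18.2% of all peaks. The NFκB-p65 string occurred in 13.2% (10.8 to 16%), 3.11% (1.65 to 5.81%) and 4.89%. The C/EBP string (TTGCNNAA) occurred in 18.9%, 8.30% and 10.9%. The order was the other way for the PU.1 string (GAGGAAG), with 14.5% of gained (12.1 to 17.4%), 26.0% of lost (21.2 to 31.3%) and 18.2% of all peaks. The IRF string (GAAA, any 2 bases, GAAA) was in 4.19%, 1.38% and 2.48%, and the MEF2 string (CTA, any 4 bases, TAG) in 4.34%, 4.84% and 2.74%. Strings common at promoters were rarer in gained peaks, with the ETS string (CCGGAAG) in 3.59%, 5.88% and 9.79%, the E-box (CACGTG) in 3.14%, 6.57% and 6.27%, and the CRE core (ACGTCA) in 5.24%, 4.84% and 8.07%. A NFκB-p65 and an AP-1 string stood together in 29 gained peaks, or 4.34%, beside 1.01% of all peaks.

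Part of these shares moves with distance to the TSS, so distal peaks were counted alone. The AP-1 string was in 43.0% of gained distal peaks (39.0 to 47.1%), 21.1% of lost and 32.6% of all distal peaks. The NFκB-p65 string was in 12.9% (10.4 to 15.9%), 3.73% and 6.10%. The C/EBP string was in 18.4% (15.4 to 21.8%) of gained and 16.3% of all distal peaks, so its interval included the share of all. At promoters the AP-1 string was in 20.4% of 103 gained peaks (13.7 to 29.2%), 1.56% of 128 lost and 4.61% of all promoter peaks, and the C/EBP string in 21.4%, 3.12% and 5.79%. The PU.1 string was in 31.7% of lost distal peaks (25.0 to 39.2%) beside 25.8% of all distal peaks, so the interval included the share of all. In gained distal peaks it was in 15.4% (12.7 to 18.6%). At promoters it was in 18.8% of lost peaks (12.9 to 26.4%) and 9.71% of gained ones (5.36 to 17.0%), beside 11.1% of all. A match is a string of letters in the window and not a measured binding site. Of the gained peaks, 654 of 668 were in the RGFP966 + KLA set, and of the lost peaks, 281 of 290 were in the Veh set. The motif shares therefore also compare these sets of peaks, and how far that shapes them was not tested.

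**Figure D5:**
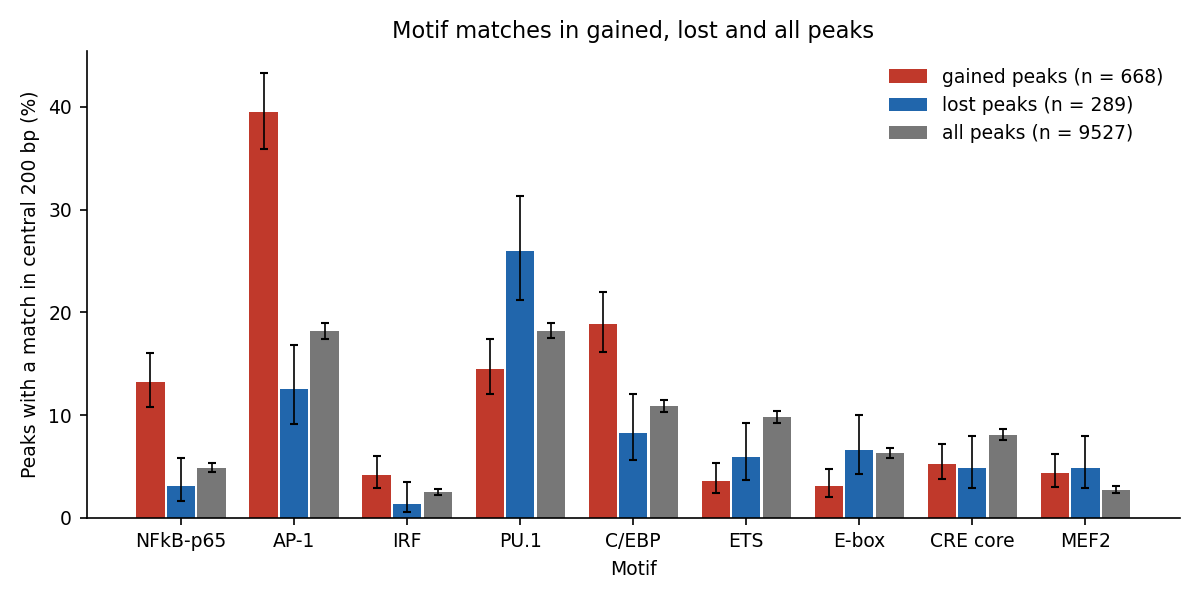
Share of gained (red, 668), lost (blue, 289) and all (gray, 9527) peaks with a match to each of 9 motif strings in the central 200 bp, with 95% Wilson intervals as bars. AP-1 (39.5%), NFκB-p65 (13.2%) and C/EBP (18.9%) stand higher in gained than in all peaks, and PU.1 (26.0%) in lost peaks.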

How the data were processed

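ATAC-seq was analysed for 2 Veh and 2 RGFP966 + KLA libraries of WT BMDMs, with the 2 KLA libraries in the same model. Per the published methods, Bowtie2 was the aligner, mm10 the genome and HOMER the peak caller. The authors merged the reproducible (IDR) peaks of all conditions and deposited raw counts of tags per peak, limited to 3 tags at a base position and not normalized. The submitters' processing notes also name DESeq2. Distances, annotations and genes are those of the deposited table. The libraries held 116733 to 202523 tags in peaks of 6247529 to 11005917 in all, so intervals cover counting error only and exclude the spread between cultures. Tags in peaks were a small share of all tags. This was 2.06% and 1.40% in the Veh libraries and 1.84% and 1.80% at RGFP966 + KLA.

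The test was the quasi-likelihood F test of edgeR 4.0.16 (R 4.3.3) on peaks that reached 4 tags in any library, with total tags in peaks as library size and all 6 WT libraries in 1 model. A call needed over 2-fold change and an adjusted p-value (Benjamini-Hochberg) below 0.05. DESeq2, the tool that the study's methods name for differential peaks, was an alternative here (version 1.42.0). Both tools were tested on simulated counts. The SE of a log2 fold change is its absolute value divided by the square root of the F statistic of this test. It thus rests on the model of all 6 WT libraries and is not a spread of 2 libraries. Ratios carry exact binomial intervals at 95% confidence, and shares Wilson intervals.

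Members, gene lists and tests were chosen with earlier results of these data known. Named peaks were, among called peaks with a mean of at least 20 tags and libraries that do not overlap, the 12 gained and 12 lost with the largest fold change (1 per gene) and the 4 promoters of each kind; the smallest adjusted p-value of each kind; genes with at least 3 called peaks; up to 4 called peaks per list; and the loci Acp5, Ocstamp, Abca1, Scd2, Ptgs2, Cp and Il12a (nearest TSS, and smallest adjusted p-value within 100 kb). Names outside this rule, chosen after their values were seen, are further list members (Il12b, Csf3, Tnfaip3, Socs1, Sdc4, Mmp14, Egr1, Spry2, Dusp6, Nfkbiz, Tnip3), Cd83, Adcy9, Ccdc90b, Tecr, Stk11, and those so marked. Motif strings were searched on both strands of GRCm38 with Python 3.11.15; the NFκB-p65 string was a degenerate consensus. Alternatives were other scalings, filters, thresholds, DESeq2, a replicate block, a higher dispersion, peak subsets and each library left out. A few called peaks of the lists are not reported here.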

Additional observations from a re-analysis of the deposited data

How the results depend on the processing

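Of 116 called peaks named, 116 kept their call with only the 4 libraries compared, with a replicate block and with no filter on tags (which removed no peak), 112 with TMM factors, 113 with a higher dispersion, 102 with GC offsets, 85 of 90 tested with a minimum of 16 tags, 94 with loess offsets, 90 with all tags as library size and 63 when tested against a fold change of 1.5. With a library left out, 47 to 64 kept it, and none changed direction under any setting. DESeq2 called 0 gained and 0 lost peaks with its own size factors and 1 and 0 with total tags (771 at an unadjusted p under 0.05). All tags as library size gave 122 lost peaks, loess offsets 394 gained, a minimum of 16 tags 145 lost of 7683 tested, and the test against 1.5-fold 337 gained and 90 lost. Leaving out 1 library gave 229 to 299 gained and 90 to 135 lost peaks. The Veh set alone gave 3 gained peaks, and the KLA set, chosen as an alternative after seeing the data, 178 gained and 49 lost. The median log2 fold change over all peaks was 0.04, and -0.01 with TMM factors, 0.14 with all tags, 0.01 with loess offsets, and 0.04 to 0.08 with a library left out. Within 1 kb of a TSS lay 11.8% of gained peaks, and with all tags 33.9% of lost peaks lay within 2 kb. The cause of these differences was not tested. With the replicate number as a block, 722 peaks were gained and 314 lost. The numbers did not pair the libraries, since deviations of same-numbered Veh and RGFP966 + KLA libraries correlated at 0.0178 over peaks. edgeR's median trended dispersion was 9.77e-05, close to counting error alone, and a dispersion of 0.0394, estimated between the libraries of a condition over peaks outside its own IDR set, gave 643 gained and 248 lost peaks.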
